A study of Mus musculus with 12 samples.

Results

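The genes described here encode 18 proteoglycan core proteins and 20 enzymes that build glycosaminoglycan chains, 38 of the 23923 genes in the table. They were taken by symbol from a list of names, which was drawn up with earlier results of these data known, and no threshold on a measured value was used. RNA-seq libraries were made from the tibialis anterior, a fast-twitch muscle of the lower leg, of 12 mice aged 6 weeks, with 1 library per mouse and 6 mice in each group. Controls were Myf6 cre/+; Smyd1 flox/+ and CKOs (conditional knockouts of Smyd1, a lysine methyltransferase of striated muscle) were Myf6 cre/+; Smyd1 flox/-, both on the C57BL6/J;129S1/SvImJ strain background. All mice therefore carried Cre and, per the methods of the study, the Rosa26 YFP/+ reporter. Cre was expressed from the Myf6 locus, which is active in skeletal myocytes, so floxed alleles in other cells were not targeted, whereas the null allele was present in every cell of a CKO. The libraries came from whole muscle. The labels give no sex, and per the study only male tissue was used in the experiments that followed the histology.

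Proteoglycans are proteins that carry long sulfated sugar chains. In muscle the small leucine-rich group coats collagen fibrils between the fibres, perlecan and agrin lie in the basement membrane, and syndecans and glypicans sit on the cell surface, where their heparan sulfate chains bind growth factors. Chain synthesis starts with a short linker built on a serine by a xylosyltransferase and further transferases, after which polymerases extend heparan or chondroitin sulfate and other enzymes sulfate the chain.

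Levels are FPKM, in which fragments are divided by transcript length and by the size of the library, so that levels can be compared between genes. The read counts are unknown, and relative depth, read from the steps between the lowest values, ranged from 0.984 to 1.77 with control 1 set to 1. Differences are log2 fold changes of FPKM + 0.1, CKO minus control, from limma, and adjusted p-values are Benjamini-Hochberg values over the 12695 genes tested. As deposited, the median of all genes lay at 0.18 on this scale, and after median-ratio scaling, which divides each library by its median ratio to the other libraries, it lay at 0.01. Tests are therefore given in both versions, while levels are FPKM as deposited unless stated otherwise. Smyd1 ranged from 32.9 to 47.1 FPKM in controls and from 27.8 to 39.9 FPKM in CKOs (limma adjusted p = 0.545 as deposited and 0.0797 after scaling). A value for the whole gene does not show whether the floxed exons were read, so it does not check the labels. The muscle fibre markers summed to 19896 to 34114 FPKM in controls and 21961 to 27669 FPKM in CKOs. After scaling they summed to 23278 to 30596 FPKM and 19905 to 26698 FPKM. Of these 7 markers only Myh4 had a positive log2 fold change, 0.77 as deposited and 0.58 after scaling. The medians of the 7 were -0.33 and -0.52.

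No member passed the adjusted threshold of 0.05 in either direction, as deposited or after scaling. Of the 38 members, 37 passed the filter of at least 0.1 FPKM in at least 6 mice, and only Gpc2 did not. As deposited, 35 of the 37 had a positive log2 fold change (94.6%, against 77.9% of all genes) and 12 were higher in CKOs at an unadjusted limma p below 0.05 (32.4%, against 18.1% of all genes). None was lower at that threshold, which 1.76% of all genes met. At the adjusted threshold 2.02% of all genes were higher and 0.268% were lower. After scaling, 28 members had a positive value (75.7%, against 51.2%) and 1, Bgn, was higher at an unadjusted p below 0.05 (2.7%, against 6.62%). In the two-sided exact permutation test after scaling Bgn did not pass (p = 0.0714), whereas Extl3 (p = 0.0325) and Chsy1 (p = 0.039) did, none of them adjusted for the number of genes. None was lower, against 7.44% of all genes, and 0.764% of all genes were higher and 0.709% lower at the adjusted threshold. The median log2 fold change of the members was 0.33 as deposited and 0.15 after scaling. The medians of core proteins and enzymes were 0.36 and 0.18 as deposited and 0.21 and 0.03 after scaling, with overlapping ranges and no test of the difference. The summed FPKM of core proteins over that of enzymes ranged from 4.14 to 9.47 in controls and from 5.23 to 7.01 in CKOs, with no CKO above the highest control. The 9.47 was control 1, and the other controls reached at most 5.05, below every CKO. Control 1 is set apart because of its high values for these genes, so this does not support a difference between groups. Dcn alone made up 51.0 ± 4.78% of the core protein FPKM in controls and 49.2 ± 3.94% in CKOs (SD, n = 6). The ratio therefore largely follows Dcn. All 17 tested core proteins kept a positive value after scaling, whereas the enzymes with a positive value went from 18 to 11 of 20. Because whole muscle was sequenced, a difference in the number of cells of a type cannot be told apart from a difference in the RNA per cell.

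**Figure D1:**
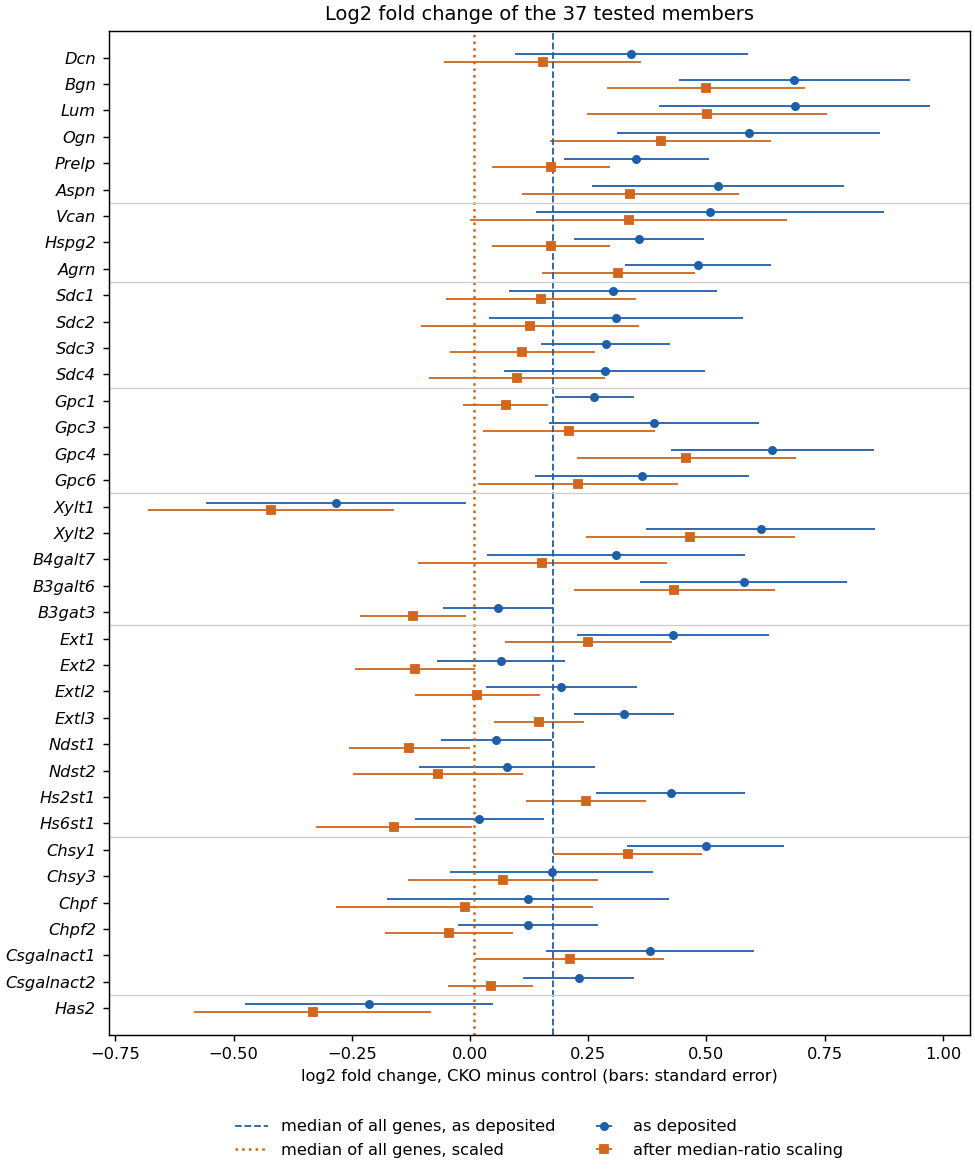
Log2 fold change (CKO minus control, horizontal axis) of the 37 tested members with standard errors, as deposited (blue circles) and after median-ratio scaling (orange squares). Vertical lines mark the median of all genes in each version, 0.18 and 0.01, and grey lines separate the classes; core proteins lie to the right of 0 in both versions, and several heparan sulfate enzymes cross 0 after scaling.

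Decorin (Dcn), which binds collagen fibrils and TGF-β, was by far the most abundant member, at 98.6 ± 60.6 FPKM in controls (SD, n = 6). The next in order of the control mean were Gpc1 (19.1 ± 1.44), Bgn (11.7 ± 6.03) and Lum (10.6 ± 7.56 FPKM). The most abundant enzyme was Csgalnact2, which begins chondroitin chains, at 9.62 ± 1.45 FPKM. Its range overlapped those of Lum above it and Aspn below it. By the control median Csgalnact2 (9.36 FPKM) stood above Bgn (9.31) and Lum (7.85 FPKM), whose means include the high values of control 1. In controls only Dcn and Ndst1 had a range entirely above that of the next gene. The genes were measured in the same mice, so overlapping ranges do not show that neighbours in the order did not differ. The other enzymes averaged from 0.125 FPKM (Chsy3) to 3.73 FPKM (Ndst1) in controls. Dcn made up 69.5 ± 1.69% of the FPKM of the 6 small leucine-rich members in controls and 65.2 ± 4.26% in CKOs.

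The small leucine-rich proteoglycans had the highest class median of log2 fold change, 0.56 as deposited and 0.37 after scaling, and 3 of the 6 (Bgn, Lum and Prelp) were higher at an unadjusted p below 0.05 as deposited. Biglycan (Bgn, X:73483602-73495933 in GRCm38), a close relative of decorin, ranged from 7.45 to 23.7 FPKM in controls with a median of 9.31, and from 11.8 to 23.7 FPKM in CKOs with a median of 18.8. Control 1 held the highest value of the 12 mice, so the groups overlapped. As deposited all 6 CKOs lay above controls 2 to 6, a pattern that 6.1% of all genes showed. After scaling they did not, with CKO 5 at 10.9 FPKM and control 5 at 12.7 FPKM. The log2 fold change was 0.69 ± 0.24 (SE, limma adjusted p = 0.144) and 0.50 ± 0.21 after scaling (adjusted p = 0.292). Lumican (Lum, 10:97565128-97572703), which regulates fibril spacing, ranged from 5.24 to 25.8 FPKM in controls (median 7.85) and from 10.01 to 18.1 FPKM in CKOs (median 16.0). Control 1 was again the highest of the 12 mice. All CKOs lay above the other 5 controls as deposited, but not after scaling (CKO 5 at 9.23 FPKM, control 5 at 10.4 FPKM). Lum had a log2 fold change of 0.69 ± 0.29 (limma adjusted p = 0.20) and 0.50 ± 0.25 after scaling (adjusted p = 0.399). Prolargin (Prelp, 1:133910304-133921414), which links basement membrane to collagen, ranged from 1.77 to 3.06 FPKM in controls (median 2.17) and from 2.49 to 3.77 FPKM in CKOs (median 2.89). The groups overlapped, with 2 CKOs above the highest control, and the log2 fold change was 0.35 ± 0.15 (limma adjusted p = 0.217) and 0.17 ± 0.13 after scaling (adjusted p = 0.603).

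The other small leucine-rich members did not pass the unadjusted threshold with all 12 mice. Dcn ranged from 60.2 to 219.7 FPKM in controls (median 77.2) and from 95.1 to 127 FPKM in CKOs (median 114). Control 1 held the 219.7 FPKM, the other controls reached at most 94.9 FPKM, and every CKO lay between them. Between groups the log2 fold change was 0.34 ± 0.25 as deposited and 0.15 ± 0.21 after scaling (limma adjusted p = 0.446 and 0.812). Osteoglycin (Ogn), another collagen-binding member, had a median of 6.81 FPKM in controls and 11.3 FPKM in CKOs and showed the same order of mice, with control 1 at 21.2 FPKM, CKOs from 10.3 to 13.8 FPKM and the other controls below them. Asporin (Aspn) had medians of 8.52 and 13.2 FPKM, with 4 of the 6 CKOs above controls 2 to 6. The exons of Aspn overlap those of Cenpp on the opposite strand, and the strand setting of the counting is not stated, so their reads may not be separable.

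**Figure D2:**
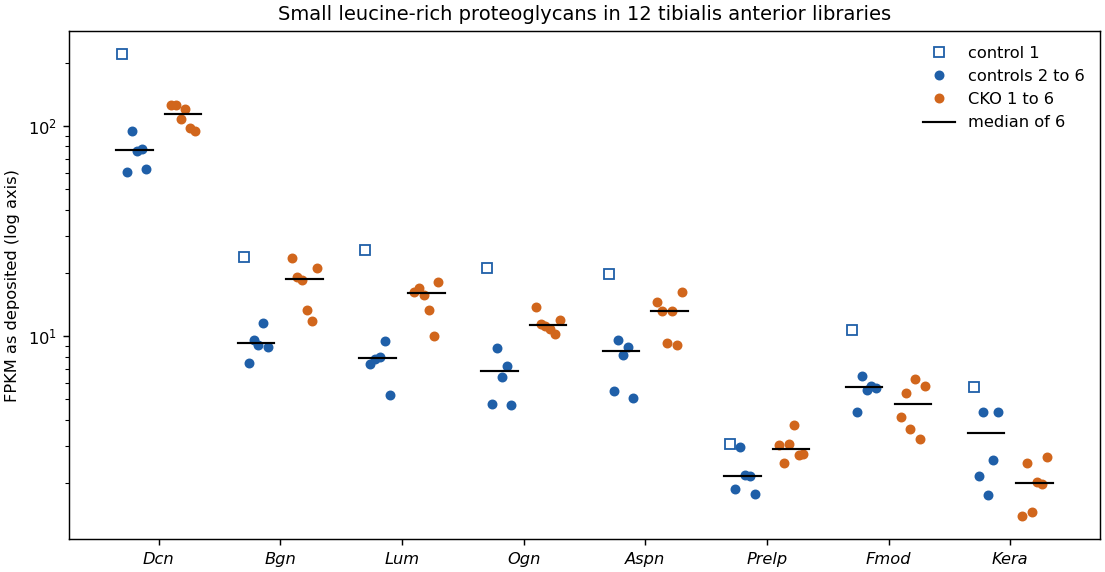
FPKM as deposited (vertical log axis) of the 6 small leucine-rich members and of Fmod and Kera, which are not members, in each of the 12 mice; horizontal lines are group medians and the open square is control 1. Control 1 is the highest of the 12 mice for Dcn, Bgn, Lum, Ogn and Aspn, and for Dcn, Bgn, Lum and Ogn every CKO lies above the other 5 controls.

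Control 1 stood apart over the members as a whole. It was the highest control for 25 of the 37 tested members (67.6%, against 44.7% of all genes) and after scaling for 16 (43.2%, against 26.0%). The summed FPKM of the 6 small leucine-rich members was 313 in control 1, 87.1 to 134 in the other controls and 142 to 198 in CKOs. After scaling it was 281 in control 1, 98.9 to 131 in the other controls and 130.6 to 184 in CKOs, of which 5 lay above the other controls. Several marker sums were highest in control 1 too, those of fibroblasts, tenocytes, macrophages, muscle fibres, pericytes and erythrocytes among them, and so was the sum of all FPKM (156610, against 110124 to 138454 in the other 11 mice). The 7 fibroblast markers (Pdgfra, Col1a1, Col1a2, Col3a1, Dpt, Mfap5 and Pi16), none of them at 0, summed to 634 FPKM in control 1, to 163 to 193 FPKM in the other controls and to 200.4 to 377 FPKM in CKOs, all 6 above the other controls. After scaling the fibroblast sums were 568, 189 to 215 and 185 to 352 FPKM, and 3 CKOs lay above the other controls. The 5 tenocyte markers other than Kera (Tnmd, Scx, Mkx, Thbs4 and Comp) summed to 45.2 FPKM in control 1, to 12.3 to 22.8 FPKM in the other controls and to 11.4 to 27.8 FPKM in CKOs, so for them the CKOs overlapped the other controls. Macrophage markers summed to 20.6 FPKM in control 1, to 6.05 to 8.73 FPKM in the other controls and to 7.27 to 13.2 FPKM in CKOs. The adipocyte markers summed to 0.758 to 2.54 FPKM in controls and 2.16 to 6.82 FPKM in CKOs, and the satellite cell markers to 2.32 to 5.58 and 4.05 to 8.81 FPKM. Of the 5 cartilage markers, Acan, Matn1 and Matn3 were below 0.1 FPKM in every mouse, while Col2a1 reached 0.27 FPKM and Col9a1 0.364 FPKM. The part of these cells in the proteoglycan levels was not tested. Divided by the fibroblast marker sum of the same mouse, which removes any scaling, the small leucine-rich sum was 0.461 to 0.693 in controls and 0.522 to 0.874 in CKOs, with 3 CKOs above the highest control. Divided by the sum of the 5 tenocyte markers it was 4.71 to 7.10 in controls and 6.80 to 12.4 in CKOs, with 5 CKOs above the highest control. Col1a1, Col1a2 and Col3a1 were the largest terms of the fibroblast sum, averaging 68.2, 66.0 and 101 FPKM in controls. Log2 fold changes of the 7 fibroblast markers ran from -0.21 (Col1a1) to 0.67 (Pdgfra) as deposited and from -0.40 to 0.49 after scaling. Their medians were 0.43 and 0.24, with 6 and 5 of the 7 positive (77.9% and 51.2% of all genes were).

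**Figure D3:**
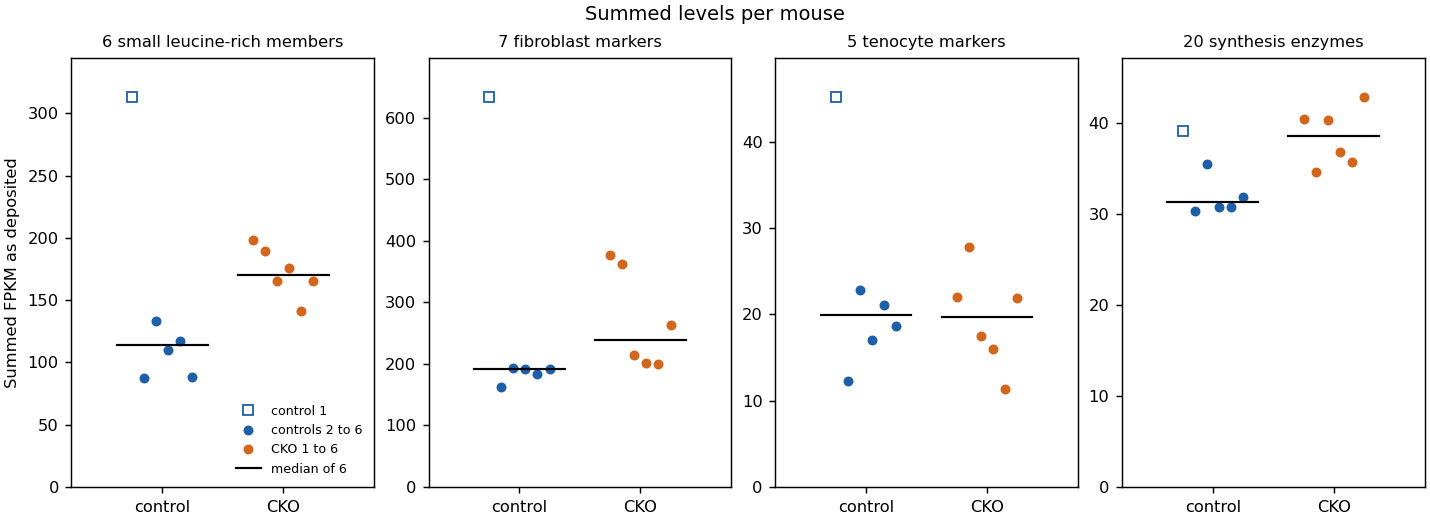
Summed FPKM as deposited per mouse (vertical axes, each from 0) for the 6 small leucine-rich members, 7 fibroblast markers, 5 tenocyte markers and the 20 synthesis enzymes; lines are group medians and the open square is control 1. Control 1 is the highest mouse in the first 3 panels, at 313, 634 and 45.2 FPKM, but not in the enzyme panel.

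Without control 1 the counts differed. This library was singled out because of its high values for these genes, so the values without it, over 12560 genes, are a description and do not support a difference between groups. Of all genes, 80.6% then had a positive log2 fold change as deposited and 51.4% after scaling. As deposited, 23 members were higher at an unadjusted limma p below 0.05 (27.2% of all genes were), none was lower (1.79% of all genes were) and 8 were higher at the adjusted threshold (8.56% of all genes were), namely Dcn, Bgn, Lum, Ogn, Aspn, Hspg2, Sdc2 and Hs2st1. After scaling, an unadjusted p below 0.05 was reached by 9 members that were higher and by 1, Ndst1, that was lower (8.71% and 9.09% of all genes) and 3 were higher at the adjusted threshold (1.43% of all genes). These 3 were Bgn (0.68 ± 0.16, limma adjusted p = 0.0382), Lum (0.75 ± 0.16, adjusted p = 0.024) and Ogn (0.65 ± 0.12, adjusted p = 0.0138). With all 12 mice the limma adjusted p-values of Bgn, Lum and Ogn were 0.144, 0.20 and 0.252 as deposited and 0.292, 0.399 and 0.476 after scaling. As deposited, every CKO lay above every control but control 1 for 7 members (Dcn, Bgn, Lum, Ogn, Gpc1, Xylt2 and Extl3) and for 6.1% of all genes, and after scaling for Ogn alone and for 1.72% of all genes. No member had every CKO below those controls, which 0.354% of all genes showed as deposited and 1.87% after scaling. In the same fits 4 of the 7 fibroblast markers were higher at the adjusted threshold as deposited and 1 of 7 after scaling.

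Among the large matrix and basement membrane core proteins, agrin and perlecan were higher in CKOs at an unadjusted p below 0.05 as deposited, and none of the 3 was after scaling. Agrin (Agrn), the nerve-derived and muscle-derived organiser of acetylcholine receptor clusters at the neuromuscular junction, ranged from 0.473 to 0.839 FPKM in controls (median 0.632) and from 0.802 to 1.08 FPKM in CKOs (median 0.941). The groups overlapped in 2 CKOs that lay below the highest control. In limma the log2 fold change was 0.48 ± 0.15 (SE, limma adjusted p = 0.113) and 0.31 ± 0.16 after scaling (adjusted p = 0.409). Perlecan (Hspg2), a heparan sulfate proteoglycan of basement membranes, ranged from 6.08 to 9.46 FPKM in controls (median 6.46) and from 7.16 to 10.8 FPKM in CKOs (median 9.25), with 3 CKOs above the highest control. Its log2 fold change was 0.36 ± 0.14 (limma adjusted p = 0.169) and 0.17 ± 0.12 after scaling (adjusted p = 0.595). Versican (Vcan), a large chondroitin sulfate proteoglycan that binds hyaluronan, was at 1.42 ± 1.14 FPKM in controls and 1.88 ± 0.76 FPKM in CKOs (SD, n = 6), and control 1 held the highest value of the 12 mice, 3.67 FPKM.

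None of the 4 syndecans passed the unadjusted threshold in limma. Their log2 fold changes lay between 0.28 and 0.31 as deposited and between 0.10 and 0.15 after scaling. Sdc4, which gathers at cell adhesions, was the most abundant at 6.60 ± 1.78 FPKM in controls and 8.11 ± 2.37 FPKM in CKOs, and it made up 55.4 ± 8.06% and 55.3 ± 9.53% of the syndecan FPKM. Sdc2 was at 3.73 ± 2.55 and 4.10 ± 0.62 FPKM, with 8.80 FPKM in control 1. Sdc3, which marks satellite cells, was at 1.30 ± 0.08 and 1.63 ± 0.32 FPKM, and 4 of the 6 CKOs lay above the highest control. As deposited, Sdc3 had p = 0.0519 in limma and p = 0.0216 in the two-sided exact permutation test. After scaling these were p = 0.482 in limma and p = 0.478 in the permutation test. Sdc1 was the lowest, at 0.47 ± 0.18 and 0.58 ± 0.13 FPKM. For each of the 4 the share of the class overlapped between groups.

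Glypicans are tied to the membrane by a lipid anchor. Gpc1 (1:92831645-92860779) was the only member whose groups did not overlap, and only as deposited, a pattern that 2.23% of all genes showed (0.189% showed the reverse). It ranged from 17.9 to 21.03 FPKM in controls (median 18.5) and from 21.4 to 25.2 FPKM in CKOs (median 22.9). Every CKO lay above every control, including control 1. The difference on the log2 scale was 0.26 ± 0.08 (SE, limma p = 0.00673, adjusted p = 0.111), and the two-sided exact permutation test gave p = 0.00216, the smallest that 924 assignments allow. After scaling, the log2 fold change was 0.08 ± 0.09 (limma adjusted p = 0.781) and the groups overlapped, as they did for all other members, whereas 0.788% of all genes had every CKO above and 0.74% had every CKO below every control. The exons of Gpc1 overlap those of Ankmy1 on the opposite strand. Gpc4 (X:52053021-52165252), a neighbour of Gpc3, ranged from 1.19 to 2.97 FPKM in controls (median 2.11) and from 1.90 to 4.37 FPKM in CKOs (median 3.21). Control 1 was the lowest of the 12 mice for Gpc4, and 4 CKOs lay above the highest control. Here the log2 fold change was 0.64 ± 0.21 (limma adjusted p = 0.126) and 0.46 ± 0.23 after scaling (adjusted p = 0.396). Gpc3, which binds hedgehog proteins, was at 2.40 ± 1.02 FPKM in controls and 3.04 ± 0.69 FPKM in CKOs, and Gpc6 at 0.27 ± 0.09 and 0.38 ± 0.13 FPKM, with log2 fold changes that did not pass the unadjusted threshold. Gpc2, a glypican of developing neurons, was above 0 in 8 of the 12 mice and reached at most 0.0956 FPKM. Gpc1 made up 80.3 ± 3.07% of the glypican FPKM in controls and 77.7 ± 3.29% in CKOs.

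Of the 5 enzymes that build the linker, 2 were higher in CKOs at an unadjusted p below 0.05 as deposited and none was after scaling. Xylt2, a xylosyltransferase that adds the first sugar, ranged from 0.193 to 0.621 FPKM in controls (median 0.34) and from 0.395 to 0.934 FPKM in CKOs (median 0.518). Control 1 was the highest control, and all CKOs lay above the other 5. The fitted log2 fold change was 0.61 ± 0.24 (SE, limma adjusted p = 0.179) and 0.47 ± 0.22 after scaling (adjusted p = 0.363). B3galt6, which adds the second galactose, ranged from 0.15 to 0.362 FPKM in controls (median 0.261) and from 0.266 to 0.62 FPKM in CKOs (median 0.429), with 5 of the 6 CKOs above the highest control. Its difference on the log2 scale was 0.58 ± 0.22 (limma adjusted p = 0.162) and 0.43 ± 0.21 after scaling (adjusted p = 0.384). The other xylosyltransferase gene, Xylt1, had a log2 fold change of -0.28 ± 0.27 (-0.42 ± 0.26 after scaling), at 0.38 ± 0.12 FPKM in controls and 0.31 ± 0.12 FPKM in CKOs (SD, n = 6). CKO 5 lay at 0.0613 FPKM, and the medians were 0.352 FPKM in controls and 0.349 FPKM in CKOs. B4galt7, which adds the first galactose, was at 0.57 ± 0.21 and 0.72 ± 0.24 FPKM, and B3gat3, which completes the linker with glucuronic acid, was the most abundant of the 5 at 2.30 ± 0.25 and 2.40 ± 0.27 FPKM.

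Among the 8 heparan sulfate enzymes, Extl3 and Hs2st1 were higher in CKOs at an unadjusted p below 0.05 as deposited, and the class median was 0.14 as deposited and -0.03 after scaling. Extl3, which adds the first glucosamine of the chain, ranged from 1.83 to 2.20 FPKM in controls (median 2.06) and from 2.19 to 2.96 FPKM in CKOs (median 2.62). The ranges touched in 1 CKO, and 5 of 6 lay above the highest control. On the log2 scale the difference was 0.33 ± 0.11 (SE, limma adjusted p = 0.119) and 0.15 ± 0.10 after scaling (adjusted p = 0.546). Hs2st1, which sulfates uronic acid, ranged from 1.52 to 2.75 FPKM in controls (median 1.89) and from 2.17 to 3.35 FPKM in CKOs (median 2.58), with 3 CKOs above the highest control. Its fitted log2 fold change was 0.42 ± 0.16 (limma adjusted p = 0.157) and 0.25 ± 0.13 after scaling (adjusted p = 0.411). The 2 subunits of the polymerase gave different values, 0.43 ± 0.20 for Ext1 and 0.07 ± 0.13 for Ext2 as deposited, neither past the unadjusted threshold and with no test of the difference between them. The N-sulfating enzyme Ndst1, the most abundant of the class at 3.73 ± 0.55 FPKM in controls and 3.86 ± 0.41 FPKM in CKOs (SD, n = 6), had a log2 fold change of 0.06 ± 0.12. Ndst2, Hs6st1 and Extl2 had log2 fold changes of 0.08, 0.02 and 0.19 as deposited. After scaling, 4 of the 8 were negative, Ext2, Ndst1, Ndst2 and Hs6st1, with values from -0.16 to -0.07 that did not pass the unadjusted threshold.

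Of the 6 chondroitin sulfate enzymes, only Chsy1 was higher in CKOs at an unadjusted p below 0.05. Chsy1, a chondroitin polymerase, ranged from 0.518 to 0.687 FPKM in controls (median 0.574) and from 0.587 to 1.08 FPKM in CKOs (median 0.902). In 5 of the 6 CKOs it lay above the highest control. The log2 fold change was 0.50 ± 0.17 (SE, limma adjusted p = 0.125) and 0.33 ± 0.16 after scaling (adjusted p = 0.362). The related Chsy3 was the lowest tested member, at 0.13 ± 0.05 FPKM in controls and 0.15 ± 0.04 FPKM in CKOs (SD, n = 6). Csgalnact2 was at 9.62 ± 1.45 and 11.3 ± 1.41 FPKM and its relative Csgalnact1 at 0.92 ± 0.27 and 1.24 ± 0.38 FPKM, so that the more abundant of these 2 chain-starting enzymes was the same in both groups. The polymerising partners Chpf and Chpf2 both had log2 fold changes of 0.12 as deposited, and of -0.01 and -0.05 after scaling, and the exons of Chpf2 overlap those of Smarcd3 on the opposite strand. Has2, which makes the unsulfated chain hyaluronan, was at 0.23 ± 0.07 FPKM in controls and 0.20 ± 0.10 FPKM in CKOs, with a log2 fold change of -0.21 ± 0.26 (-0.33 ± 0.25 after scaling), and its exons overlap the antisense gene Has2os.

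**Figure D4:**
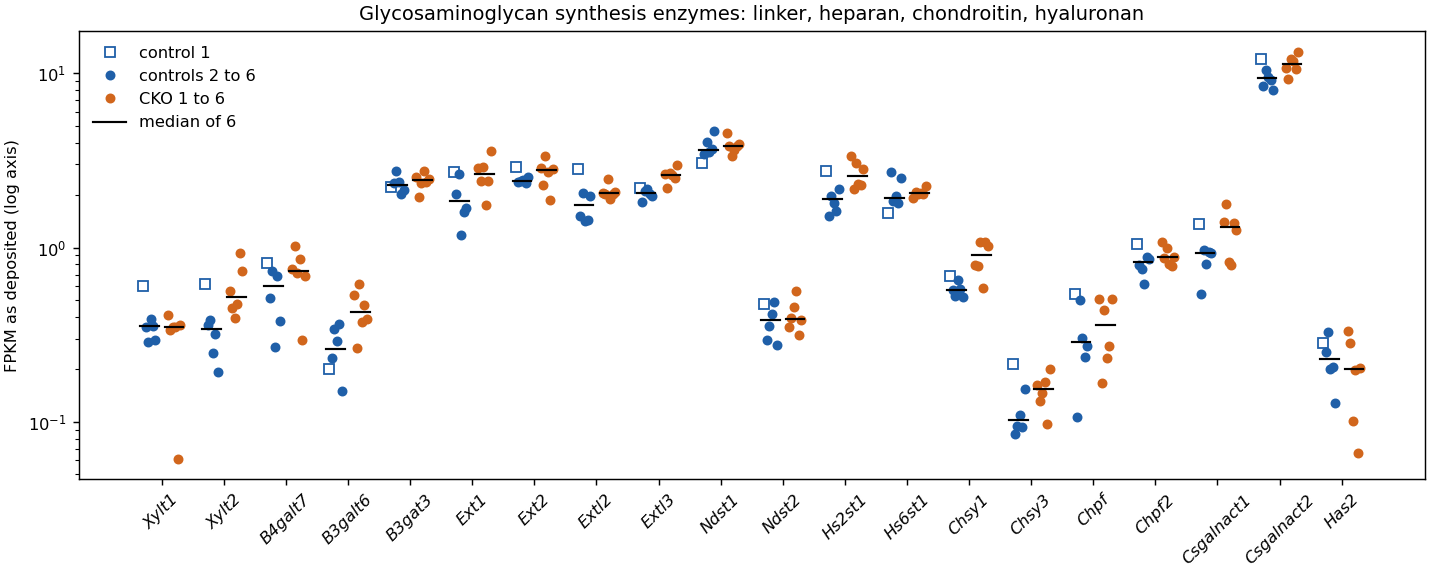
FPKM as deposited (vertical log axis) of the 20 synthesis enzymes in each of the 12 mice, ordered as linker, heparan sulfate, chondroitin sulfate and hyaluronan enzymes; horizontal lines are group medians and the open square is control 1. The groups overlap for all 20 enzymes, with 5 of 6 CKOs above the highest control for B3galt6, Extl3 and Chsy1.

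Of 89 further genes of the same pathways, 64 passed the filter. As deposited, an unadjusted p below 0.05 was reached by 16 genes (25%, against 18.1% of all genes) in the higher and by 1 in the lower direction (1.76% of all genes), and none passed the adjusted threshold, and after scaling the counts were 6 (9.38%, against 6.62%) and 5 (against 7.44% of all genes), close to the shares of all genes, and again none passed the adjusted threshold. Of the 6 genes with the smallest unadjusted p in either version, 3 had positive values in both. The heparan sulfate 6-O-sulfotransferase Hs6st2 ranged from 0.346 to 0.599 FPKM in controls (median 0.505) and from 0.392 to 1.60 FPKM in CKOs (median 1.22), and 5 of the 6 CKOs lay above every control. The change on the log2 scale was 0.95 ± 0.28 (SE, limma adjusted p = 0.083) and 0.79 ± 0.27 after scaling (adjusted p = 0.19), whereas that of its relative Hs6st1, a member, was 0.02 ± 0.14 as deposited. Betaglycan (Tgfbr3), a membrane proteoglycan and TGF-β co-receptor, ranged from 2.36 to 5.55 FPKM in controls (median 2.83) and from 3.87 to 5.77 FPKM in CKOs (median 4.71). All 6 CKOs lay above controls 2 to 6, and the log2 fold change was 0.59 ± 0.18 (limma adjusted p = 0.0875) and 0.41 ± 0.14 after scaling (adjusted p = 0.192). Without control 1 the limma adjusted p for Tgfbr3 was 0.00265 as deposited and 0.0194 after scaling. Of the 64 genes, 9 were then higher at the adjusted threshold as deposited and 1 after scaling (8.56% and 1.43% of all genes were). Since control 1 was singled out by its values, these are a description and do not support a difference between groups. Hexa, a lysosomal enzyme that takes part in chain breakdown, had medians of 4.31 FPKM in controls and 7.38 FPKM in CKOs (0.53 ± 0.19, limma adjusted p = 0.142, and 0.34 ± 0.14 after scaling, adjusted p = 0.302). The linker kinase Fam20b had medians of 8.61 and 8.10 FPKM (-0.09 ± 0.10 as deposited, which did not pass the unadjusted threshold, and -0.28 ± 0.09 after scaling, limma adjusted p = 0.149).

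The remaining 2 of these 6 genes, Kera and Fmod, are themselves small leucine-rich proteoglycans and ran the other way. Keratocan (Kera, 10:97606879-97613692), which lies near Dcn and Lum on chromosome 10 and is also used as a tenocyte marker here, ranged from 1.75 to 5.74 FPKM in controls (median 3.46) and from 1.395 to 2.65 FPKM in CKOs. Its log2 fold change was -0.69 ± 0.26 (SE, limma adjusted p = 0.168) and -0.87 ± 0.24 after scaling (adjusted p = 0.104). Fibromodulin (Fmod, 1:134037254-134048277), which lies near Prelp on chromosome 1 and binds collagen in tendon, ranged from 4.35 to 10.6 FPKM in controls (median 5.73) and from 3.22 to 6.28 FPKM in CKOs (median 4.74). Its log2 fold change was -0.41 ± 0.20 (limma adjusted p = 0.273) and -0.60 ± 0.18 after scaling (adjusted p = 0.133). Both therefore lay below 0 in both versions, while all 6 small leucine-rich members lay above 0. Control 1 held the highest value of both genes, and the other controls reached at most 4.36 FPKM for Kera and 6.44 FPKM for Fmod. Without control 1, Kera had -0.52 as deposited and -0.75 after scaling (limma adjusted p = 0.170 and 0.116). Fmod had -0.26 and -0.49 (limma adjusted p = 0.327 and 0.146), so control 1 enlarged both differences. The other small leucine-rich genes that passed the filter were divided. Omd (0.81 ± 0.32, limma adjusted p = 0.178, and 0.66 ± 0.30 after scaling, adjusted p = 0.333), Podn (0.52 ± 0.19, adjusted p = 0.157, and 0.34 ± 0.15, adjusted p = 0.342) and Ecm2 (0.28 ± 0.16 and 0.09 ± 0.13) lay above 0, and Chad (-0.25 ± 0.23 and -0.41 ± 0.22) lay below, so that of the 6 that are not members 3 were positive and 3 negative.

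The ratio of 2 genes within a mouse does not depend on how libraries are scaled, so ratios were formed after these values had been seen, over all 66 pairs of 12 small leucine-rich genes. Because Kera and Fmod were singled out by their values, the ratios are a description and carry no test. The groups did not overlap for 7 pairs, 3 of the 11 with Kera and 4 with Fmod, and for none of the 15 pairs among members. Over all pairs of genes above 0 in every mouse the share without overlap was 1.48%, over ratios to Kera 5.37%, over ratios to Fmod 5.65% and over ratios to Lum 0.268%. The ratio of Lum to Kera ranged from 1.21 to 4.53 in controls (median 3.55) and from 5.07 to 11.7 in CKOs (median 6.79). Control 1, with the highest level of Lum, lay inside the range of the other controls for this ratio. The ratio of Aspn to Fmod ranged from 0.90 to 1.85 in controls (median 1.48) and from 2.104 to 3.53 in CKOs (median 2.68), and that of Prelp to Fmod from 0.287 to 0.462 and from 0.466 to 0.843. The tenocyte marker sum did not separate the groups, but all 6 tenocyte markers, Kera included, had negative log2 fold changes in both versions (medians of -0.44 and -0.61). Mkx had a log2 fold change of -0.98 ± 0.31 (limma adjusted p = 0.109) and -1.10 ± 0.28 after scaling (adjusted p = 0.0731). Without control 1, 2 of the 6 tenocyte markers were positive as deposited (median -0.27) and none was after scaling (median -0.48). The part of tenocytes in these ratios was not tested.

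**Figure D5:**
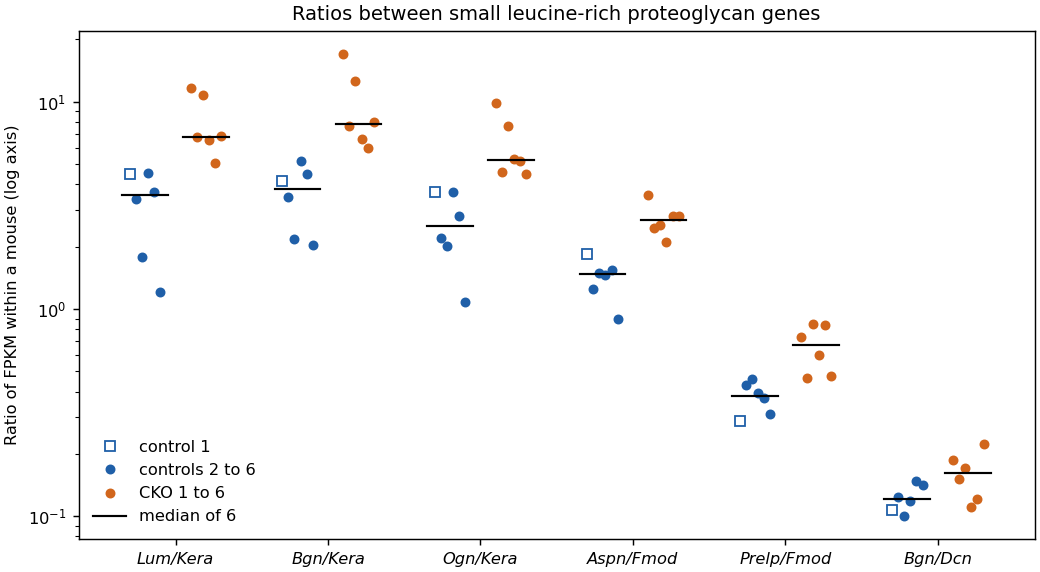
Ratio of FPKM of 2 small leucine-rich genes within each mouse (vertical log axis); horizontal lines are group medians and the open square is control 1. The 5 ratios to Kera or Fmod shown are those of members whose groups are separate, and the groups overlap for Bgn to Dcn. Not shown are Dcn, Prelp and Aspn to Kera and Dcn, Bgn, Lum and Ogn to Fmod, for which the groups overlap.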

How the data were processed

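Total RNA of the tibialis anterior was depleted of ribosomal RNA by the authors with the ScriptSeq Complete Gold kit. Per the labels, the deposited FPKM values were made with TopHat2 2.0.10 and Cufflinks 2.1.1 on mm9. Per the methods of the study, multi-mapping reads were discarded, so close relatives may be undercounted. Each file listed 23950 symbols, of which 27 had become dates and were left out. The test in the study used read counts, which were not used here.

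Log2(FPKM + 0.1) was compared with limma 3.58.1 in R 4.3.3, with a trend in the prior variance, for genes that reached 0.1 FPKM in 6 or more of the 12 samples, as deposited and after median-ratio scaling. Benjamini-Hochberg adjustment ran over all 12695 genes, or over the 12560 that passed the filter without control 1. Single members were also compared by a two-sided exact permutation test over 924 assignments. Positions came from GENCODE mouse release 21 (GRCm38) by symbol, not from the authors' build. On simulated data for control against CKO (12695 genes) all genes changed 4-fold (100%) and 83% of those changed 2-fold were recovered at an adjusted p below 0.05. The changes were set only in genes of higher mean level, with independent normal noise and no outlying library such as control 1. The recovery therefore does not cover members at low levels or changes smaller than 2-fold. Read depth is unknown, so no counting interval is given, and the p-values measure the spread between mice.

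The members, the lists of further pathway genes and the cell type markers were chosen with earlier results of these data known. Full values are given for members with an unadjusted p below 0.05 in either version, and 6 further pathway genes with the smallest p are named. The alternatives were another pseudocount, other filters, quantile normalization, the replicate number as a block, no trend, sample weights and each sample left out in turn. The ratios between small leucine-rich genes and the counts of CKOs above controls 2 to 6 were added after the values were seen.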

Additional observations from a re-analysis of the deposited data

Results flagged for a closer look

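Values that lay far from the other samples of their group by Dixon's criterion at the 95% level (the gap to the nearest other sample, as a share of the range) were found in 14 of the 76 groups of member values. Chance gives about 1 in 20 for normally distributed values. The criterion was applied to FPKM without a log, and normality was not tested, so 1 in 20 is only a rough guide. In 10 of the 14 the sample was control 1, as the highest control. Its values were 219.7 FPKM for Dcn, 23.7 for Bgn, 25.8 for Lum, 21.2 for Ogn, 19.7 for Aspn, 3.67 for Vcan, 8.80 for Sdc2, 0.439 for Gpc6, 0.603 for Xylt1 and 2.90 FPKM for Ext2. The genes of one library are not independent, so these 10 are 1 library seen 10 times.

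The other 4 were single values. For Gpc2, which is near 0, control 6 was highest at 0.0956 FPKM in controls and CKO 6 at 0.0936 FPKM in CKOs. For Xylt1, CKO 5 was lowest at 0.0613 FPKM. For Extl2, CKO 3 was highest at 2.47 FPKM.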

How the results depend on the processing

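No called difference changed direction under an alternative, and no member passed the adjusted threshold with all 12 mice except under sample weights. Over all genes, 2300 were higher and 224 lower in CKOs at an unadjusted limma p below 0.05, and 257 and 34 at the adjusted threshold. The unadjusted counts were 841 and 944 under median-ratio scaling and 810 and 837 under quantile normalization, with 3704 higher under sample weights. The adjusted counts were 97 and 90 under scaling, 101 and 68 under quantile normalization, 1400 and 115 under sample weights, and 170 higher with no filter. Leaving out each mouse in turn gave 1724 to 3416 higher and 193 to 320 lower (88 to 1075 and 18 to 69 adjusted, with the fewest higher without CKO 1 and the most without control 1). Members higher as deposited (12) numbered 1 under scaling, 2 under quantile normalization, 22 under sample weights (12 adjusted) and 9 to 23 with a mouse left out (0 to 8 adjusted, 8 without control 1). Members higher after scaling (1) numbered 5 without the trend, 2 with a pseudocount of 1, 8 under sample weights (1 adjusted) and 0 to 9 with a mouse left out (0 to 3 adjusted, and 0 to 1 lower), with 9 without control 1, 4 without CKO 5, 3 without CKO 2 or control 6, 2 without CKO 4 or control 5, and 0 without CKO 6 or control 3. Further pathway genes higher (16) and lower (1) numbered 6 and 5 under scaling, 4 and 3 under quantile normalization, and 9 to 21 and 1 to 2 with a mouse left out, with 13 higher at the adjusted threshold under sample weights and 0 to 9 with a mouse left out. The linker class median (0.31) was 0.0917 under quantile normalization and 0.15 to 0.49 with a mouse left out. With a filter at 1 FPKM only B3gat3 was left of this class, and its own log2 fold change was 0.0599. The heparan sulfate class median (0.14) was -0.0259 under scaling, -0.0641 under quantile normalization and 0.11 to 0.22 with a mouse left out. Of the 12 members past the unadjusted threshold as deposited, 11 lost it under scaling, 10 under quantile normalization and 1, Lum, in the exact permutation test. Sdc3, not among the 12, passed it in the exact permutation test as deposited (p = 0.0216). The single member past it after scaling, Bgn, lost it in the exact permutation test (p = 0.0714). The scalings differ by construction in the level they set equal between libraries. Other causes were not tested. Same-numbered samples did not deviate together (r from -0.0861 to 0.164, best match for 2 of 6 numbers). A low correlation cannot show that the numbers do not pair the mice, so counts with the replicate number as a block are given too. With the replicate block, 15 members were higher as deposited, 2 after scaling, and 1 further pathway gene passed the adjusted threshold. Values under about 0.1 FPKM, such as Gpc2, are limited by depth.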
